A study of Arabidopsis thaliana with 16 samples.

Results

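WRKY transcription factors are plant proteins that bind DNA through a domain named after its invariant first residues, and most of them recognise the W-box, a short promoter element with the core TGAC. Many WRKY genes carry W-boxes themselves and are regulated by other members, and WRKY proteins act downstream of MAP kinase cascades and together with VQ proteins. In Arabidopsis the family is known for pathogen responses, salicylic and jasmonic acid signalling, leaf senescence and the response to low phosphate.

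The genes described here are all genes of the count table whose symbol is WRKY followed by a number: 67 of 32833 genes. All 67 had a RefSeq locus with the same symbol, start and end. Another 5 loci with a WRKY number among their synonyms stand under other symbols (ZAP1, TTR1, RRS1, TTG2 and ABO3) and were not included. Of the 67, 59 had enough counts for the test and 8 did not (WRKY10, 34, 41, 59, 64, 66, 67 and 68). These 8 had 0 counts in both WT libraries, where a count of 0 allows up to 3 counts per library, and at most 10 counts in any library; WRKY64, 66 and 68 had 0 in all 16.

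RNA came from untreated, 9-day-old whole seedlings of Arabidopsis thaliana on 1/2 MS medium with sucrose. The 8 genotypes had 2 libraries each: the triple mutant nup50c nup82 nup136, the double mutants nup50c nup82, nup50c nup136 and nup82 nup136, the single mutants nup50c, nup82 and nup136, and wild type (WT). NUP50C, NUP82 and NUP136 are components of the nuclear basket, which sits on the inner face of the nuclear pore. The labels name no allele, and nothing in them tells if paired libraries are separate cultures, so p-values measure only the spread between these libraries. Each library held 37923632 to 46194172 gene counts, of which WRKY genes made up 0.0869% to 0.113%. NUP50C had 11.3 and 11.01 CPM (counts scaled to library size by TMM) in the triple mutant and 40.6 and 43.3 in WT. NUP136 had 18.6 and 20.2 CPM in the triple mutant, 33.9 and 23.4 in libraries labelled nup82 nup136 and 49.1 and 46.8 in WT. NUP82 had 21.7 and 21.4 CPM in libraries labelled nup82, against 29.5 and 34.96 in WT. NUP82 did not follow the labels in the triple mutant, with 36.7 and 37.5 CPM (log2 fold change 0.20 ± 0.11, adjusted p = 0.124). It had 31.1 and 26.8 CPM in libraries labelled nup50c nup82, a range that overlapped that of WT. Libraries labelled nup82 nup136 had 29.03 and 25.95 CPM, below both WT libraries but above both labelled nup82. The presence of nup82 in combinations thus rests on the labels. Whole-gene counts do not separate transcripts of a disrupted allele from intact ones.

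The coding sequences show what defines the members. A search for codons of tryptophan, arginine, lysine, tyrosine, glycine, then any codon, then lysine found the family's heptapeptide in all 67. Of them, 57 held 1 copy and 10 held 2, and these 10 were among the 11 members of group I, the structural group with a pair of WRKY domains; WRKY10 was the group I member with 1 copy. In 64 members each copy had a glutamine codon at the sixth position, and in 3 (WRKY50, WRKY51 and WRKY59) it was a lysine codon. The 21 coding bases (TAIR10.1, 5′ to 3′ on the coding strand, sixth codon in capitals) are shown for genes with large changes in the triple mutant, for WRKY33 as a member with a pair of domains, and for the 3 members with the lysine codon.
WRKY28 (chr4:10062149-10062169, plus strand): tggagaaaatacggcCAAaag
WRKY45 (chr3:326932-326952, minus strand): tggaggaagtacggcCAAaaa
WRKY75 (chr5:4150786-4150806, minus strand): tggaggaaatatggcCAAaag
WRKY70 (chr3:20909760-20909780, minus strand): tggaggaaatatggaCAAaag
WRKY42 (chr4:2220298-2220318, plus strand): tggagaaaatacggaCAAaaa
WRKY56 (chr1:23747788-23747808, plus strand): tggcgaaagtacggtCAGaaa
WRKY33, first domain (chr2:16109358-16109378, plus strand): tggagaaagtacggaCAAaaa
WRKY33, second domain (chr2:16109982-16110002, plus strand): tggagaaaatacggcCAGaaa
WRKY50 (chr5:9147579-9147599, minus strand): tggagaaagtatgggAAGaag
WRKY51 (chr5:25908864-25908884, plus strand): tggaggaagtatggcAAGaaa
WRKY59 (chr2:9335762-9335782, minus strand): tggaggaaatacggaAAGaag

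The promoters of the members were searched for the W-box, written TTGACC or TTGACT, on both strands of the 250 bases before each gene start in TAIR10.1. Both forms contain the TGAC core, and the window can reach into a neighbouring gene. At least 1 match lay before 24 of 67 WRKY genes (35.8%), against 7797 of 27443 promoters of nuclear protein-coding genes with such a window (28.4%). At least 2 matches lay before 10 WRKY genes (14.9%), against 6.18% of those 27443 promoters. By the response in the triple mutant described below, a match was present in 8 of 20 genes that rose, 7 of 15 that fell, 6 of 24 tested genes that did not pass and 3 of 8 untested genes. A match is a string in this window and not a measured binding site. Shown are the promoters of the 3 genes with the largest rise and the 3 with the largest fall among those that passed in the triple mutant, with W-box matches in capitals.
WRKY28 (chr4:10060964-10061213, plus strand): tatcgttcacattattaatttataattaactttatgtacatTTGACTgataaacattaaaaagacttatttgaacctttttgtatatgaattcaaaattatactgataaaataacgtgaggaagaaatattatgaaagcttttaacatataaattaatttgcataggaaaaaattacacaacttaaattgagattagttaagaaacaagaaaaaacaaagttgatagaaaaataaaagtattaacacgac
WRKY45 (chr3:327413-327454, minus strand, only the 42 bases that lie outside the neighbouring gene AT3G01980): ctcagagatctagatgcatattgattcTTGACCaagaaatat
WRKY75 (chr5:4151202-4151451, minus strand): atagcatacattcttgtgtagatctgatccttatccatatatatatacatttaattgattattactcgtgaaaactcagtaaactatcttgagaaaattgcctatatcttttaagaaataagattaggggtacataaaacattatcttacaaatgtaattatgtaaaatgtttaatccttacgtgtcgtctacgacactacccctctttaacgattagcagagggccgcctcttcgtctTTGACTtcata
WRKY70 (chr3:20910624-20910873, minus strand): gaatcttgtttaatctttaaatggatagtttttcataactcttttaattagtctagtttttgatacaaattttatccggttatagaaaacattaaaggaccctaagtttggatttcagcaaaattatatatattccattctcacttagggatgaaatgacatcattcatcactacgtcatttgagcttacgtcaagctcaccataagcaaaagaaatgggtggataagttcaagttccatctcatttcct
WRKY42 (chr4:2217792-2218041, plus strand): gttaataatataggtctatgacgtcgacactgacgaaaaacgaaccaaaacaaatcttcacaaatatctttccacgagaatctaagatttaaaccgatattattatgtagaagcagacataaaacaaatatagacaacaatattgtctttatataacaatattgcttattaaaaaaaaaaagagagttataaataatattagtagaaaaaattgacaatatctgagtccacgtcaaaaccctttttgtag
WRKY56 (chr1:23747054-23747303, plus strand): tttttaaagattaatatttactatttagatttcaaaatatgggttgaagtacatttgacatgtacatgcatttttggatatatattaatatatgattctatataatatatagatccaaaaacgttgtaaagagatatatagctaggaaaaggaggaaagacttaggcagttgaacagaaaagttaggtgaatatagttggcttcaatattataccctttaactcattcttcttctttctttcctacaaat
The match of WRKY75 starts 11 bases and that of WRKY28 209 bases before the gene start, and the windows of WRKY70, WRKY42 and WRKY56 hold none. The whole window of WRKY45 holds 2 matches, and the one not shown lies in the part taken up by AT3G01980.

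Per length, WRKY18, a regulator of defence genes that forms complexes with WRKY40 and WRKY60, had the highest mean level, 63.2 FPKM over the 16 libraries. WRKY15 and WRKY39, both of the calmodulin-binding group IId, followed with 36.7 and 34.8 FPKM. WRKY18 had 75.02 and 73.03 FPKM in the triple mutant and 49.2 and 48.7 in WT, and it ranged from 21.03 to 113 over all libraries. WRKY15 ranged from 26.8 to 46.997 FPKM and WRKY39 from 28.1 to 44.1, so the ranges of these 3 genes overlapped. WRKY62 was the lowest of the tested members, with a mean of 0.149 FPKM. The summed WRKY level was 1137 and 1123 CPM in the triple mutant, above the 947 and 994 CPM of WT and above all other libraries, which spanned 867 to 1093 CPM.

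**Figure D1:**
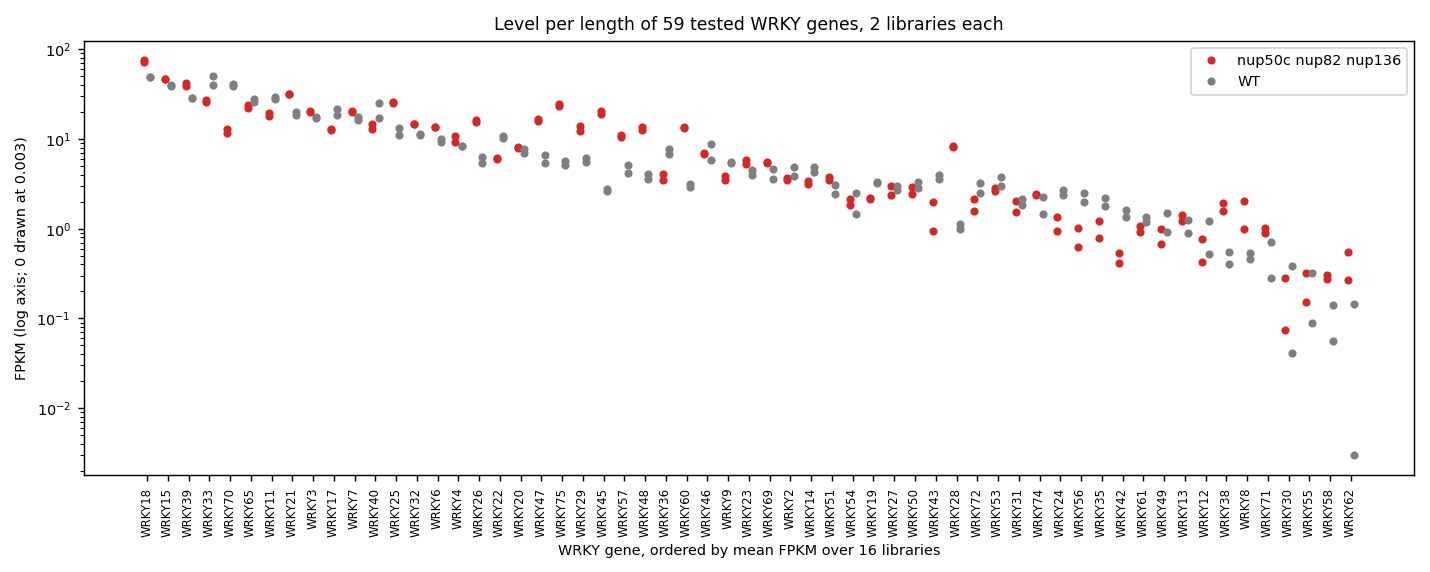
Level per length (FPKM, log axis) of the 59 tested WRKY genes, ordered by their mean over 16 libraries, with 2 points for the triple mutant (red) and 2 for WT (grey). WRKY18 stands at the high end and WRKY62 at the low end, and WRKY28, WRKY45, WRKY75 and WRKY60 show red points well above the grey ones.

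Against WT, between 12 and 35 WRKY genes changed in each genotype that carries nup136, and at most 1 in each of the others. In the triple mutant 35 of 59 members passed (20 higher, 15 lower), or 59.3%, beside 47.6% of all tested genes (23.3% higher, 24.3% lower). In nup50c nup136 31 passed (15 higher, 16 lower), or 52.5%, beside 24.7% (11.7% higher, 13.1% lower). In libraries labelled nup82 nup136 21 passed (7 higher, 14 lower), or 35.6%, beside 19.3% (7.95% and 11.3%). In nup136 alone 12 passed (5 higher, 7 lower), or 20.3%, beside 14.4% (6.56% and 7.83%). In nup50c 1 member passed (WRKY45, higher), or 1.69%, beside 1.73% (0.923% and 0.812%). None passed in libraries labelled nup82, beside 1.39% of all genes (0.856% and 0.535%). None passed in those with nup50c and nup82, beside 0.905% (0.562% and 0.343%). All 7 comparisons share the same WT libraries. Calls rest on edgeR's quasi-likelihood test with Benjamini-Hochberg adjustment over 22427 genes at 0.05. Since whole seedlings were sampled, a change in the number of cells of a type and a change in RNA per cell cannot be told apart. With library totals as the only scaling, the split in libraries labelled nup82 nup136 was 11 higher and 10 lower. Over all genes it moved likewise, to 2594 higher and 2113 lower, from 1784 and 2541 with TMM. With any library of WT or of nup50c nup136 left out, fewer members were called in nup50c nup136. The same held in libraries labelled nup82 nup136 with any library of WT or of that genotype left out. Calls over all genes fell in each of these fits as well.

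The size of the changes followed the same order of genotypes. The median absolute log2 fold change of the 59 members was 0.59 in the triple mutant, 0.52 in nup50c nup136, 0.43 in libraries labelled nup82 nup136 and 0.38 in nup136, beside 0.39, 0.25, 0.22 and 0.20 over all tested genes. The signed medians were 0.18, -0.10, -0.18 and -0.04, while those over all tested genes were at most 0.01 in size. In at least 1 genotype 45 of the 59 passed (76.3%), beside 55.1% of all tested genes, and 14 passed in none. WRKY6, WRKY7 and WRKY15 passed in both directions, lower in a single or double mutant and higher in the triple mutant.

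**Figure D2:**
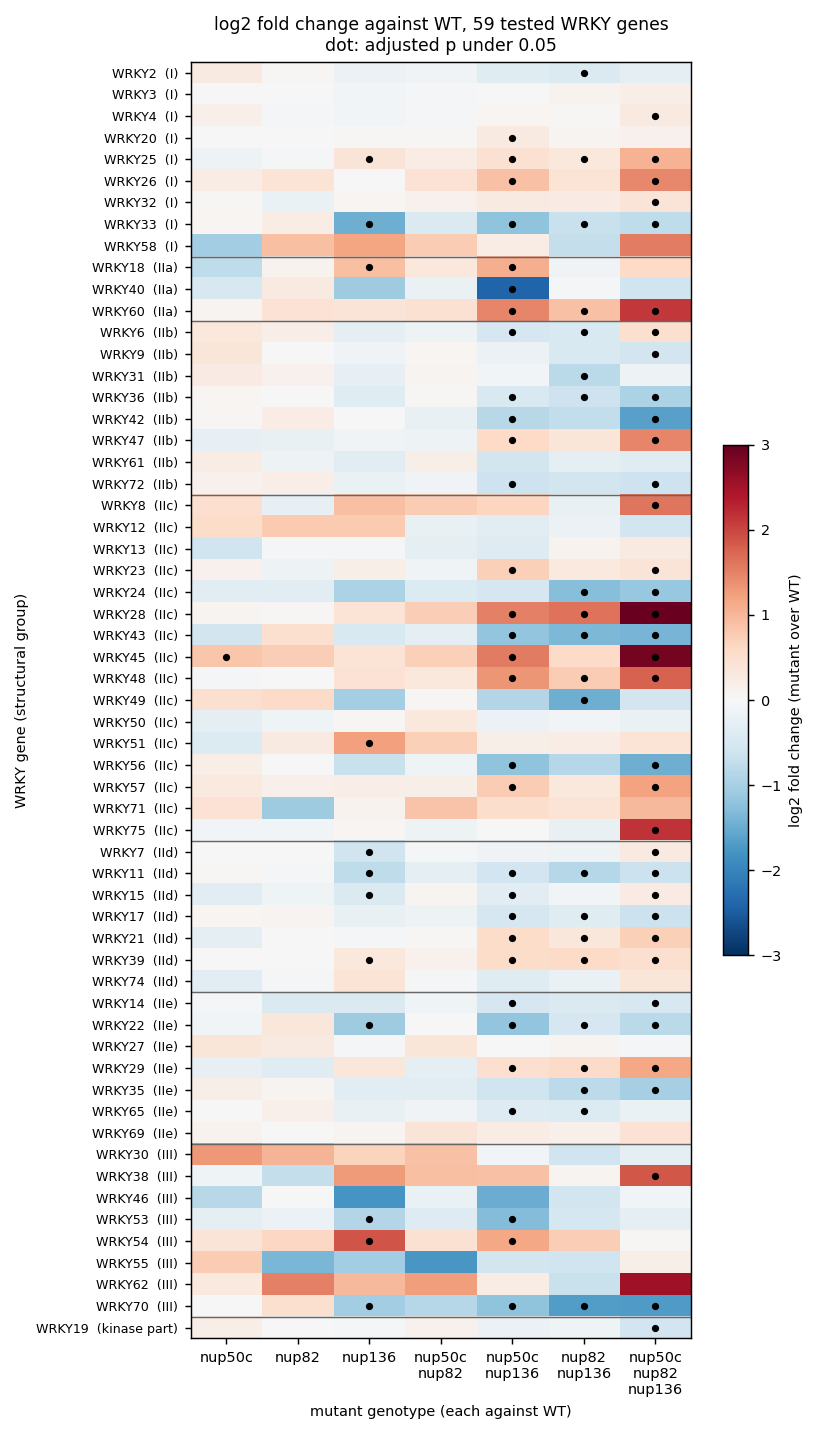
Log2 fold change against WT (colour, red higher and blue lower in the mutant) of 59 WRKY genes, in rows by structural group, in 7 mutant genotypes, with a dot where the adjusted p is under 0.05. The 4 columns with nup136 hold all dots but 1 (WRKY45 in nup50c), and 35 of them are in the triple mutant.

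The structural groups are small and were not tested against each other. In the triple mutant 23.3% of all tested genes were higher and 24.3% lower. Group IIc, the largest, had 7 of 16 tested members higher and 3 lower there (median log2 fold change 0.39). Group I had 4 of 9 higher and 1 lower (0.27), and IId had 4 of 7 higher and 2 lower (0.27). Group IIb had 2 of 8 higher and 4 lower (-0.46), and IIe 1 of 7 higher and 3 lower (-0.21). Group III, which holds WRKY70 and WRKY54, had 1 of 8 higher and 1 lower (-0.03), with 4 of its 12 members untested. In IIa, WRKY60 was higher and the other 2 members did not pass. WRKY19, which joins a WRKY domain to parts of a receptor and a kinase, was lower.

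Of the genes that passed in the triple mutant, WRKY28, WRKY45 and WRKY75, all of group IIc, had the largest rises. WRKY28, an activator of the salicylic acid synthesis gene ICS1, had 11.8 and 12.3 CPM in the triple mutant and 1.63 and 1.46 CPM in WT (log2 fold change 2.96 ± 0.28, adjusted p = 2.57e-09). WRKY45, an activator of the phosphate transporter gene PHT1;1, had 27.9 and 26.1 CPM in the triple mutant and 3.62 and 3.78 CPM in WT (2.87 ± 0.21, 2.22e-11). WRKY75, which acts in phosphate starvation and leaf senescence, had 20.1 and 19.1 CPM in the triple mutant and 4.59 and 4.15 CPM in WT (2.17 ± 0.26, 5.49e-07). Both triple-mutant libraries stood above all 14 others for each of these 3 genes. The genes were picked by their change in these libraries, so such separations, here and below, describe them and add no test. Their levels in the other mutants were not alike. WRKY75 ranged over 2.44 to 5.02 CPM in all single and double mutants. WRKY28 had 4.98 and 3.92 CPM in nup50c nup136 and 5.28 and 4.23 in libraries labelled nup82 nup136, above WT. WRKY45 had 11.4 and 10.3 CPM in nup50c nup136 and 4.42 and 6.60 in libraries labelled nup82 nup136.

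Next by size of the rise among the genes that passed were WRKY60, WRKY38, WRKY48, WRKY8 and WRKY47. The low-level members WRKY62 and WRKY58 did not pass (2.55 ± 1.38, adjusted p = 0.131, and 1.52 ± 0.92, 0.18). WRKY60, the partner of WRKY18 and WRKY40, had 21.9 and 20.9 CPM in the triple mutant against 5.07 and 4.68 in WT (2.13 ± 0.18, 5.85e-10). WRKY48, a negative regulator of basal resistance to bacteria, had 24.3 and 26.2 CPM against 6.96 and 7.76 in WT (1.78 ± 0.18, 1.19e-08). WRKY47 had 31.4 and 33.1 CPM against 10.5 and 12.9 in WT (1.46 ± 0.13, 1.56e-09). The mutant and WT libraries did not overlap for WRKY60, 48 and 47, nor for the 2 that follow. These genes, too, were picked by their change in these libraries. WRKY38, a negative regulator of basal defence, had 2.04 and 2.55 CPM in the triple mutant and 0.724 and 0.532 in WT (1.86 ± 0.45, 0.00133). WRKY8, known from salt and virus responses, had 1.37 and 2.82 CPM against 0.633 and 0.744 in WT (1.61 ± 0.50, 0.00989), with its 2 mutant libraries far apart. WRKY8 did not pass without WT replicate 1 (1.49, adjusted p = 0.0718) or without triple mutant replicate 2 (0.99, adjusted p = 0.202), and the other 7 of these 8 risen genes passed with any 1 of the 4 libraries left out.

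The remaining 12 that rose had smaller changes. WRKY25 and WRKY26, group I genes that act with WRKY33 in heat tolerance, were among them. WRKY25 had 45.7 and 44.7 CPM in the triple mutant and 23.8 and 19.97 in WT (1.05 ± 0.11, 1.49e-08), and WRKY26 had 25.6 and 24.2 against 9.93 and 8.46 (1.44 ± 0.15, 2.97e-08). WRKY57, a drought tolerance factor, and WRKY29, a target of the flagellin cascade, had 1.20 ± 0.14 and 1.17 ± 0.18. The others were WRKY4, 6, 7, 15, 21, 23, 32 and 39, with log2 fold changes between 0.24 and 0.72.

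WRKY70, a factor that sets the balance of salicylic and jasmonic acid responses, had the largest fall in the triple mutant. It had 19.05 and 17.3 CPM in the triple mutant and 57.3 and 60.3 CPM in WT (-1.69 ± 0.21, 6.20e-05). WRKY42, a repressor of the phosphate exporter gene PHO1, had 1.30 and 1.01 CPM against 3.89 and 3.24 in WT (-1.63 ± 0.30, 7.75e-05). WRKY36, a repressor of the light signalling gene HY5, had 7.97 and 6.86 CPM against 15.1 and 13.3 in WT (-0.94 ± 0.14, 5.32e-06). For these 3 genes both triple-mutant libraries were below both WT libraries, and the call held with any 1 library left out. WRKY22, of the same flagellin cascade as WRKY29, had 7.93 and 8.22 CPM against 14.5 and 13.6 in WT (-0.80 ± 0.15, 0.00012) and held likewise, so this pair moved in opposite directions.

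The other 4 of the 8 largest falls were in genes with few counts. WRKY56 had 0.913 and 0.551 CPM in the triple mutant and 2.26 and 1.75 in WT (-1.46 ± 0.44, 0.00849). WRKY43 had 1.25 and 0.597 CPM against 2.53 and 2.29 in WT (-1.39 ± 0.40, 0.00599), and WRKY24 had 1.20 and 0.849 against 2.40 and 2.13 (-1.14 ± 0.38, 0.0148). WRKY35 had 2.26 and 1.47 CPM against 4.14 and 3.30 in WT (-1.001 ± 0.27, 0.00373). All 4 lost the call without triple mutant replicate 2 (adjusted p = 0.102 for WRKY56, 0.113 for WRKY43, 0.126 for WRKY24 and 0.0826 for WRKY35). WRKY56, WRKY24 and WRKY35 also lost it without WT replicate 1 (0.0668, 0.0772 and 0.0532). The other 7 that fell were WRKY9, 11, 14, 17, 19, 33 and 72, with log2 fold changes between -0.76 and -0.49. WRKY11 and WRKY17, a pair of negative regulators of basal resistance, were among them, with -0.63 ± 0.10 and -0.65 ± 0.12.

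Organ markers also differed in this comparison, in which 23.3% of all tested genes were higher and 24.3% lower. Of 6 root markers 4 were lower and 1 (WOX5) was higher in the triple mutant, and their summed level was 43.8 to 45.4 CPM in the triple mutant and 80.5 to 81.2 CPM in WT. Of 6 shoot markers 5 were lower, with a summed level of 13471 to 13860 CPM in the triple mutant and 18564 to 19541 CPM in WT. The flower gene AP3 had 2.28 and 2.89 CPM in the triple mutant against 0.430 and 0.106 in WT, and the seed storage gene CRA1 had 23.03 and 18.4 CPM against 0 and 1.12 in WT. The flower gene AG ranged over 0 to 0.527 CPM in all libraries. In the other genotypes with nup136 the root markers summed to 56.6 to 62.1 CPM (nup136), 44.5 to 55.7 (nup50c nup136) and 60.1 to 61.1 (labelled nup82 nup136). The part of these markers in the WRKY changes was not tested.

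**Figure D3:**
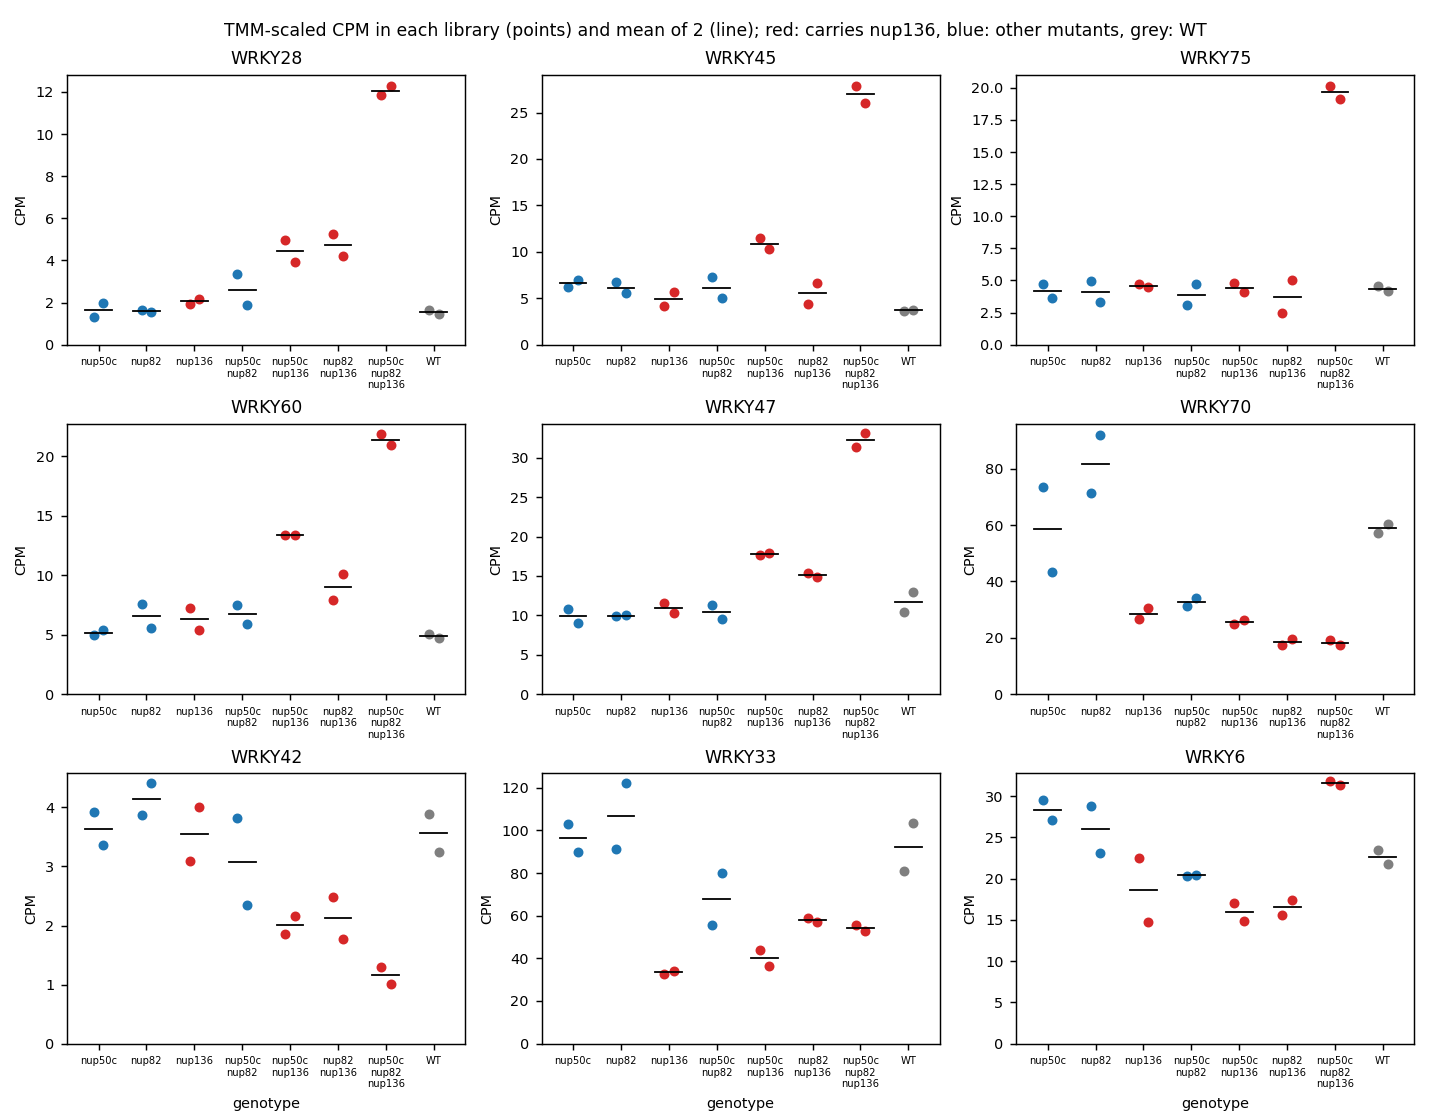
CPM of 9 WRKY genes in every library (points) with the mean of 2 (line), for 7 mutant genotypes and WT at the right of each panel; red marks genotypes with nup136, blue other mutants and grey WT. WRKY75 is highest in the 2 triple-mutant libraries and flat elsewhere, WRKY28 and WRKY60 are also raised in double mutants with nup136, and WRKY70 is low in all genotypes with nup136 and in nup50c nup82.

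Of the genes that passed in nup136 alone, WRKY33 and WRKY22 had the largest falls and WRKY54 and WRKY51 the largest rises. WRKY40 and WRKY38, which did not pass, had -1.08 ± 0.47 and 1.27 ± 0.45. WRKY33, which drives camalexin synthesis and resistance to necrotrophic fungi, had 32.6 and 34.2 CPM in nup136 and 80.9 and 103 CPM in WT (-1.47 ± 0.20, 0.000596). WRKY22 had 7.69 and 5.64 CPM against 14.5 and 13.6 in WT (-1.07 ± 0.16, 2.58e-05), and WRKY70 had 26.5 and 30.4 against 57.3 and 60.3 (-1.05 ± 0.21, 0.00667). WRKY7, 11, 15 and 53 also fell. WRKY54, the closest relative of WRKY70 and a negative regulator of senescence, rose: it had 7.92 and 12.8 CPM in nup136 and 2.08 and 3.56 in WT (1.88 ± 0.29, 8.11e-05). WRKY51, which takes part in the repression of jasmonic acid responses, had 6.15 and 6.09 CPM against 2.31 and 2.92 in WT (1.23 ± 0.26, 0.00194). WRKY18 had 189 and 183 CPM against 100.4 and 99.1 in WT (0.90 ± 0.25, 0.0494), and WRKY25 and WRKY39 rose as well. The call of WRKY18 was lost with any of the 4 libraries left out (adjusted p = 0.14 and 0.16 without nup136 replicates 1 and 2, 0.183 and 0.191 without WT replicates 1 and 2) and with a replicate block (0.0706). WRKY70 lost it without nup136 replicate 1 (0.0642).

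Of the genes that passed in nup50c nup136, WRKY45, WRKY28 and WRKY60 had the largest rises. WRKY45 had 11.4 and 10.3 CPM in nup50c nup136 against 3.62 and 3.78 in WT (1.56 ± 0.21, 3.21e-06), and WRKY28 had 4.98 and 3.92 against 1.63 and 1.46 (1.52 ± 0.28, 0.000181). WRKY60 had 13.3 and 13.4 CPM against 5.07 and 4.68 in WT (1.45 ± 0.18, 1.67e-06). The largest fall was in WRKY40, a wound-inducible repressor of defence and abscisic acid responses, with 4.75 and 5.86 CPM in nup50c nup136 and 22.6 and 33.3 in WT (-2.39 ± 0.50, 0.0089). Its partners WRKY18 and WRKY60 rose in the same libraries, so the 3 members of group IIa did not move together. WRKY40 lost its call without WT replicate 2, nup50c nup136 replicate 1 or nup50c nup136 replicate 2 (adjusted p = 0.0506, 0.0597 and 0.0527). Of the 100-base windows in the WRKY40 gene, 66 of 1840 (3.59%) occur elsewhere in the genome, and no other member had any. WRKY53, a senescence regulator, had 1.74 and 2.39 CPM against 4.59 and 5.69 in WT (-1.31 ± 0.28, 0.000889). Over 341 bases it overlaps 3xHMG-box2 on the opposite strand, which had 73637 counts over the 16 libraries beside 2556 for WRKY53, and whether counting used the strand is not given in the sources used here. WRKY56 had 0.510 and 1.23 CPM against 2.26 and 1.75 in WT (-1.20 ± 0.44, 0.0441) and lost its call without WT replicate 1, WT replicate 2 or nup50c nup136 replicate 1 (0.217, 0.0709 and 0.333) and with a replicate block (0.0508).

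In libraries labelled nup82 nup136, WRKY28 again had the largest rise, with 5.28 and 4.23 CPM against 1.63 and 1.46 in WT (1.62 ± 0.28, 0.000121). WRKY60 had 7.95 and 10.1 CPM against 5.07 and 4.68 (0.89 ± 0.19, 0.00111), and WRKY48 had 14.8 and 10.2 against 6.96 and 7.76 (0.76 ± 0.18, 0.00345). WRKY70 fell most, to 17.3 and 19.7 CPM against 57.3 and 60.3 in WT (-1.67 ± 0.21, 0.000268), a level that overlapped that of the triple mutant. WRKY43 had 0.764 and 1.12 CPM against 2.53 and 2.29 in WT (-1.36 ± 0.40, 0.0176), and WRKY49 had 0.406 and 0.604 against 1.72 and 1.06 (-1.47 ± 0.48, 0.0304). WRKY45 was not called, with 4.42 and 6.60 CPM (0.58 ± 0.21, adjusted p = 0.0551). Calls were lost without nup82 nup136 replicate 1 for WRKY48, WRKY43 and WRKY49 (adjusted p = 0.107, 0.13 and 0.174), without WT replicate 1 for the same genes (0.0538, 0.0932 and 0.257), without WT replicate 2 for WRKY43 (0.0507), and without nup82 nup136 replicate 2 for WRKY49 (0.0522). The 2 libraries of this genotype had 20.7 and 45.6 CPM of CRA1, against 0 and 1.12 in WT, and the part of seed RNA in these values was not tested.

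Several WRKY genes are induced within minutes by touch and wounding, and 10 other genes of that response were set beside them. In nup136 5 of the 10 were lower and 0 higher (median log2 fold change -0.71), and in nup50c nup136 5 were lower and 0 higher (-0.81). Over all tested genes 7.83% were lower and 6.56% higher in nup136, and 13.1% and 11.7% in nup50c nup136. In libraries labelled nup82 nup136 3 were lower and 1 higher (-0.17), and in the triple mutant 3 were lower and 2 higher (-0.04). The shares over all tested genes were 11.3% lower and 7.95% higher in the former, and 24.3% and 23.3% in the triple mutant. Without nup136, 1 was lower in nup50c (median -0.16), 0 passed in libraries labelled nup82 (0.30) and 0 in those labelled nup50c nup82 (-0.45). Of all tested genes 1.73%, 1.39% and 0.905% passed in these 3 comparisons. Their summed level was 588 to 597 CPM in nup136, 590 to 689 in nup50c nup136, 714 to 816 in libraries labelled nup82 nup136 and 759 to 795 in the triple mutant. It was 952 to 1173 CPM in nup50c, 1243 to 1548 in libraries labelled nup82 and 820 to 990.5 in those labelled nup50c nup82, against 1223 to 1284 CPM in WT. The ranges of nup50c and nup50c nup82 thus also lay below that of WT. Libraries of 1 genotype could also differ. WRKY40 had 27.1 and 12.9 CPM in nup50c, and WRKY46, a member induced by salicylic acid, had 4.24 and 12.8 CPM in libraries labelled nup50c nup82 and 5.16 and 14.8 in the single nup82 ones, each pair more than 2-fold apart. In nup136 WRKY46 had 2.90 and 2.90 CPM against 7.91 and 11.8 in WT, a difference short of the threshold (-1.76 ± 0.66, adjusted p = 0.121). Handling at harvest is not recorded in the labels, and its part in these values was not tested.

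**Figure D4:**
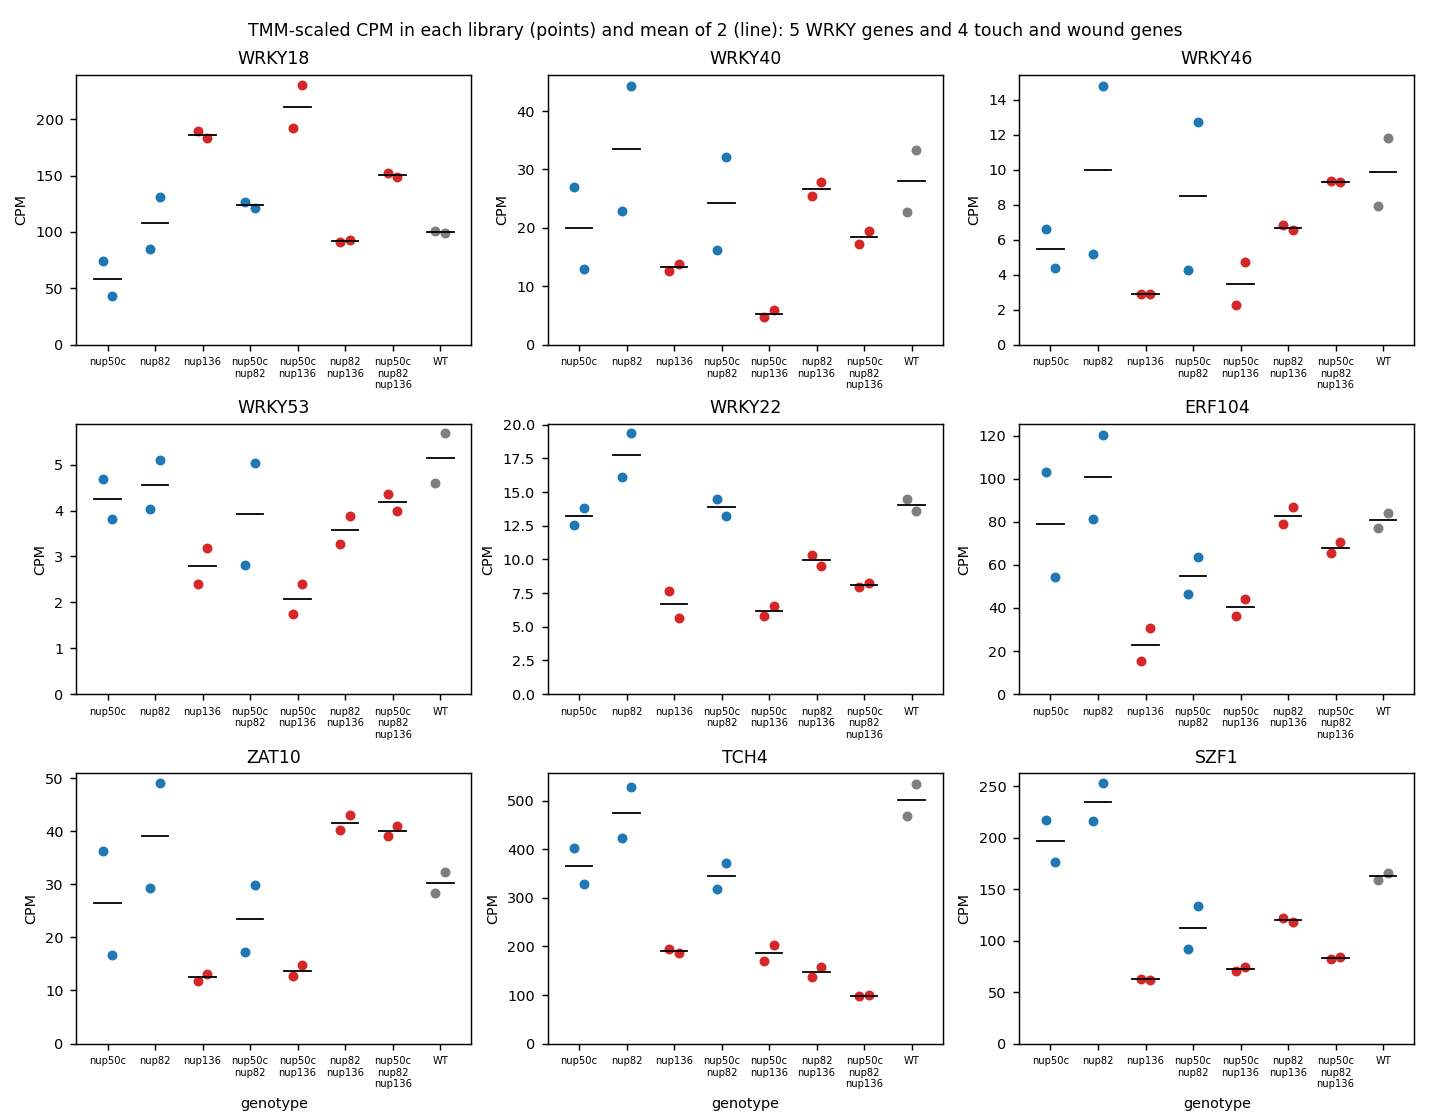
CPM in every library (points) with the mean of 2 (line) for WRKY18, 40, 46, 53 and 22 and for the touch and wound genes ERF104, ZAT10, TCH4 and SZF1, with WT at the right of each panel; red marks genotypes with nup136, blue other mutants and grey WT. WRKY40, WRKY46 and ZAT10 are low in nup136 and nup50c nup136, WRKY18 is high there, and the 2 libraries labelled nup82 lie far apart for WRKY40 and WRKY46.

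Without nup136, at most 1 member passed in a genotype. In nup50c WRKY45 had 6.18 and 7.00 CPM against 3.62 and 3.78 in WT (0.83 ± 0.21, 0.0344), and both mutant libraries were above both WT libraries. This call was lost with any of the 4 libraries left out (adjusted p = 0.0711 and 0.321 without nup50c replicates 1 and 2, 0.254 and 0.185 without WT replicates 1 and 2). In libraries labelled nup82, where edgeR called none, 7 members were at an unadjusted p under 0.05 (11.9%, beside 13.1% of all genes), and the DESeq2 Wald test called 1 (beside 2.47% of all genes), WRKY45, with 6.77 and 5.51 CPM against 3.62 and 3.78 in WT. In those labelled nup50c nup82, edgeR again called none, 9 members were at an unadjusted p under 0.05 (15.3%, beside 12.5% of all genes), and DESeq2 called 1 (beside 2.18%), WRKY70, with 31.3 and 34.1 CPM against 57.3 and 60.3 in WT (-0.85 ± 0.21, edgeR adjusted p = 0.1). Its libraries did not overlap those of WT. In the single mutants WRKY70 stood at 73.5 and 43.4 CPM in nup50c and 71.4 and 92.1 in libraries labelled nup82.

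Set against each double mutant, the triple mutant tests the addition of the third mutation. Adding nup136 to nup50c nup82 went with 28 changed members (18 higher, 10 lower), beside 46.3% of all genes (22.3% higher, 24% lower). Of the genes that passed, WRKY75, 28 and 45 had the largest rises (2.33 ± 0.27, 2.22 ± 0.27 and 2.14 ± 0.20), and WRKY42, 56 and 43 the largest falls (-1.42 ± 0.30, -1.34 ± 0.45 and -1.11 ± 0.41). WRKY56 and WRKY43 lost the call without triple mutant replicate 2 (0.153 and 0.29) or nup50c nup82 replicate 1 (0.0642 and 0.0515), and WRKY43 also without nup50c nup82 replicate 2 (0.122).

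Adding nup82 to nup50c nup136 went with 17 changed members (14 higher, 3 lower), beside 22% of all genes (10.1% higher, 11.9% lower). This count of members fell with any of the 4 libraries left out. WRKY75 had 20.1 and 19.1 CPM in the triple mutant and 4.82 and 4.07 in nup50c nup136 (2.14 ± 0.26, 2.43e-06). WRKY40 had 17.3 and 19.5 CPM against 4.75 and 5.86 in nup50c nup136 (1.79 ± 0.50, 0.0352), and WRKY28 had 11.8 and 12.3 against 4.98 and 3.92 (1.44 ± 0.25, 0.000128). WRKY54 was lower, at 3.10 and 2.62 CPM against 6.28 and 6.36 in nup50c nup136 (-1.15 ± 0.29, 0.00518), as were WRKY36 (-0.48 ± 0.14) and WRKY19 (-0.39 ± 0.11). WRKY40 lost its call with any of the 4 libraries left out (adjusted p between 0.0931 without triple mutant replicate 1 and 0.165 without nup50c nup136 replicate 1; 0.126 and 0.113 without the second replicates). WRKY54 lost it without triple mutant replicate 2 (0.0767), WRKY36 without that library or either nup50c nup136 library (0.191, 0.0647 and 0.0786), and WRKY19 without triple mutant replicate 1 or nup50c nup136 replicate 1 (0.0801 and 0.103).

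Adding nup50c to nup82 nup136 went with 19 changed members (17 higher, 2 lower), beside 29.8% of all genes (14.9% each way). WRKY75 had 20.1 and 19.1 CPM in the triple mutant and 2.44 and 5.02 in libraries labelled nup82 nup136 (2.40 ± 0.27, 4.70e-07), and WRKY45 had 27.9 and 26.1 against 4.42 and 6.60 (2.29 ± 0.20, 2.67e-09). WRKY8 had 1.37 and 2.82 CPM against 0.764 and 0.418 (1.83 ± 0.51, 0.00725) and lost its call without triple mutant replicate 2 (0.168) or nup82 nup136 replicate 2 (0.0811). The 2 lower members were WRKY42, at 1.30 and 1.01 CPM against 2.48 and 1.77 (-0.88 ± 0.31, 0.0314), and WRKY19, at 14.5 and 14.9 against 20.6 and 19.8 (-0.46 ± 0.11, 0.00176). WRKY42 lost its call without triple mutant replicate 1, triple mutant replicate 2 or nup82 nup136 replicate 1 (0.0555, 0.203 and 0.256).

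Whether the effects of the mutations add up on the log2 scale was tested with 4 terms, each the effect of a combination minus what its parts sum to. In at least 1 of them 12 members passed (20.3%), beside 17.6% of all tested genes. The three-way term was positive for 3 of 59 members and negative for none, beside 9.55% of all genes (5.09% and 4.46%). These were WRKY75 (2.45 ± 0.53, 0.00444), WRKY45 (1.98 ± 0.40, 0.00196) and WRKY6 (1.83 ± 0.29, 0.000215), and each passed with any 1 of the 16 libraries left out. WRKY6, a senescence factor and repressor of PHO1, had 31.9 and 31.3 CPM in the triple mutant, 17.1 and 14.9 in nup50c nup136, 15.6 and 17.4 in libraries labelled nup82 nup136 and 23.5 and 21.8 in WT. It was therefore below WT in both doubles with nup136 and above it in the triple mutant. WRKY6 had 20.3 and 20.5 CPM in libraries labelled nup50c nup82, also below WT. In the single mutants it had 29.6 and 27.1 CPM (nup50c), 28.8 and 23.1 (labelled nup82) and 22.5 and 14.8 (nup136). The count of members was 6 without nup136 replicate 1, 5 without nup82 replicate 1 and 5 without nup82 nup136 replicate 2.

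For nup50c with nup136 the term was positive for 5 members and negative for none, beside 5.17% of all genes (2.45% and 2.72%): WRKY7, 21, 47, 48 and 60. WRKY21 had 62.3 and 57.2 CPM in nup50c nup136, 32.9 and 34.4 in nup50c, 43.5 and 36.9 in nup136 and 39.7 and 42.2 in WT (0.86 ± 0.14, 0.00021). WRKY47 had 17.7 and 17.9 CPM in nup50c nup136, 10.8 and 9.02 in nup50c, 11.5 and 10.3 in nup136 and 10.5 and 12.9 in WT (0.95 ± 0.19, 0.00261). In both genes the double mutant lay above all libraries of its single mutants and of WT. WRKY60 and WRKY48 had 0.99 ± 0.26 and 0.93 ± 0.25, and the count was 3 without WT replicate 2 or nup50c nup136 replicate 2. WRKY60 lost the call without WT replicate 1, nup50c replicate 1, nup136 replicate 2 or either nup50c nup136 library (adjusted p between 0.0526 and 0.11). WRKY48 lost it without WT replicate 2, nup50c replicate 2, nup136 replicate 1 or nup50c nup136 replicate 2 (between 0.122 and 0.148).

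For nup82 with nup136 3 members were positive (WRKY7, 15 and 47) and 3 negative (WRKY51, 54 and 70), beside 8.77% of all genes (3.44% and 5.33%). WRKY54 had 4.04 and 5.27 CPM in libraries labelled nup82 nup136, 4.90 and 3.71 in those labelled nup82, 7.92 and 12.8 in nup136 and 2.08 and 3.56 in WT (-1.77 ± 0.40, 0.00632), and it passed with any 1 of the 8 libraries left out. WRKY51 had 2.32 and 3.81 CPM in libraries labelled nup82 nup136 and 6.15 and 6.09 in nup136 (-1.28 ± 0.37, 0.0304). Both genes were higher in nup136 than in WT and did not pass in libraries labelled nup82 nup136. The other 5 were less stable when 1 library was left out. WRKY7 lost its call without nup82 replicate 1, nup136 replicate 2, either nup82 nup136 library or either WT library (adjusted p between 0.0549 and 0.203). WRKY15 lost its call without either nup82 library, nup136 replicate 2, nup82 nup136 replicate 2 or either WT library (adjusted p between 0.064 and 0.151). WRKY47 lost its call without either nup82 library, nup136 replicate 2, nup82 nup136 replicate 1 or WT replicate 2 (adjusted p between 0.0534 and 0.137). WRKY51 lost its call without either nup82 library, either nup136 library, nup82 nup136 replicate 1 or WT replicate 1 (adjusted p between 0.0635 and 0.165). WRKY70 lost its call without nup82 replicate 2, either nup136 library, either nup82 nup136 library or either WT library (adjusted p between 0.0865 and 0.191). The count of members was 2 without WT replicate 1, WT replicate 2, nup82 replicate 2, nup136 replicate 2 or nup82 nup136 replicate 1, and 3 without nup82 replicate 1. For nup50c with nup82 the term was positive for WRKY15 and negative for WRKY70, beside 4.78% of all genes (2.31% and 2.48%). WRKY15 lost its call without any 1 of the 8 libraries (adjusted p between 0.0557 and 0.111). WRKY70 lost its call without nup82 replicate 2, either nup50c nup82 library or either WT library (adjusted p between 0.0646 and 0.0996). With a replicate block, the term of WRKY70 did not pass here (0.0563) or for nup82 with nup136 (0.0778).

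**Figure D5:**
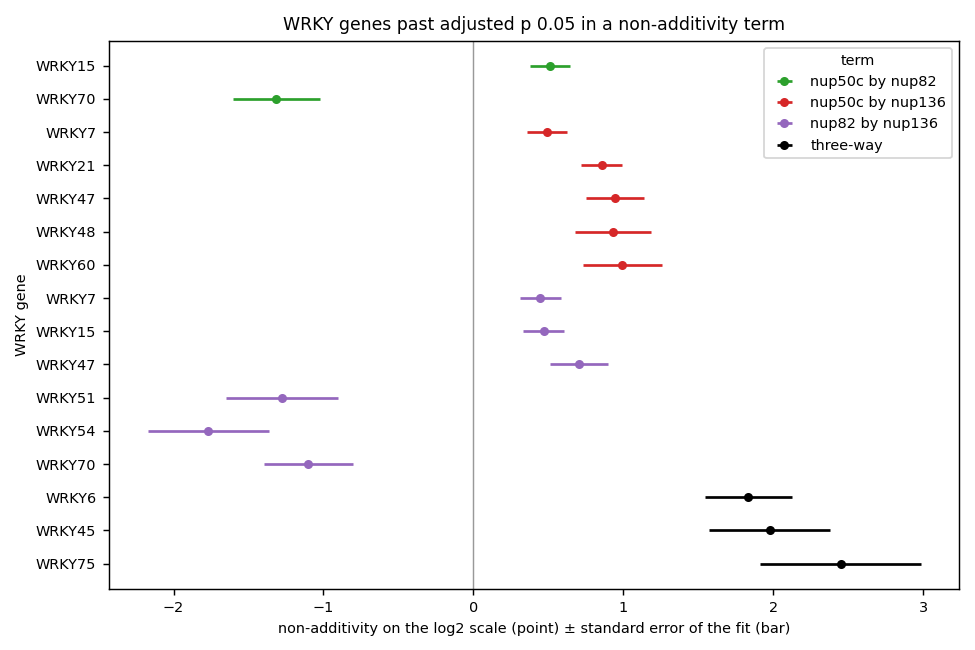
Non-additivity on the log2 scale (point) with its standard error (bar) for each WRKY gene past an adjusted p of 0.05 in 1 of 4 terms, coloured by term. The three-way values of WRKY6, 45 and 75 lie between 1.83 and 2.45, those of nup50c by nup136 are all positive, and WRKY51, 54 and 70 are negative for nup82 by nup136.

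Partners and upstream kinases of WRKY proteins were set beside the members. In the triple mutant 47.6% of all tested genes passed, 23.3% higher and 24.3% lower. Of 10 VQ proteins, which bind WRKY factors and alter their activity, 7 were tested and in the triple mutant 4 were higher and 1 lower (median log2 fold change 0.38, while that over all tested genes was almost 0). JAV1, a repressor of jasmonic acid defence, had 18.1 and 15.97 CPM in the triple mutant and 4.84 and 2.87 in WT (2.13 ± 0.22, 1.03e-08). SIB1, a partner of WRKY33, had 9.08 and 6.88 CPM against 14.2 and 18.2 in WT (-1.02 ± 0.27, 0.00814). Of 10 genes of the MAP kinase cascades that act on WRKY factors, 6 were higher and 2 lower (median 0.43), beside the same shares. MKK4 and MKK5, kinases upstream of MPK3 and MPK6, were higher (0.73 ± 0.13 and 0.65 ± 0.11), as was MPK11 (1.85 ± 0.51), while MPK3 itself had 67.6 and 67.2 CPM in the triple mutant and 151 and 174 in WT (-1.27 ± 0.09, 4.78e-11). MPK3 was also lower in nup136 (-1.04 ± 0.09), nup50c nup136 (-1.20 ± 0.09) and libraries labelled nup82 nup136 (-1.09 ± 0.09). Without nup136, MPK3 had 115 and 128 CPM in libraries labelled nup50c nup82, below both WT libraries. It had 163 and 157 CPM in nup50c and 177 and 211 in libraries labelled nup82.

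Of 16 genes known as direct targets of WRKY factors, 7 were higher and 4 lower in the triple mutant (median 0.59). For comparison, 23.3% of all tested genes were higher there and 24.3% lower. PAD3, the last enzyme of camalexin synthesis and a target of WRKY33, had 92.2 and 94.1 CPM in the triple mutant and 8.48 and 11.9 in WT (3.20 ± 0.53, 0.00106), in libraries in which WRKY33 itself was lower (-0.76 ± 0.19). CYP71A13, an earlier enzyme of the same pathway, had 6.17 and 4.18 CPM in the triple mutant and 0.0905 and 0 in WT. In nup136 alone CYP71A13 had 7.07 and 6.35 CPM and PAD3 had 26.2 and 28.1. Libraries labelled nup82 lay far apart, with 3.77 and 0 CPM of CYP71A13 and 28.1 and 8.09 of PAD3. PHT1;1, the phosphate transporter gene that WRKY45 and WRKY42 act on, had 34.4 and 29.6 CPM against 92.2 and 96.5 in WT (-1.56 ± 0.10, 2.25e-12), in libraries in which WRKY45 was higher and WRKY42 lower. PHO1 and ALMT1, a malate channel gene, were also lower (-0.78 ± 0.10 and -0.65 ± 0.13). ICS1, the gene that WRKY28 activates, had 9.51 and 10.9 CPM in the triple mutant and 9.41 and 11.2 in WT. The salicylic acid marker PR1 had 38.3 and 36.7 CPM in the triple mutant and 0.362 and 0.0532 in WT, but 24.4 and 3.48 in nup50c and 25.8 and 15.02 in nup136, and the 2 libraries of nup50c were far apart. ABI4 had 1.03 and 1.19 CPM in the triple mutant and 0 counts in both WT libraries.

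The 14 tested members that passed in no genotype were WRKY3, 12, 13, 27, 30, 46, 50, 55, 58, 61, 62, 69, 71 and 74. WRKY3, a factor of resistance to necrotrophic fungi, was among the steadiest, at 43.6 and 45.5 CPM in the triple mutant and 38.4 and 38.9 CPM in WT, within 35.1 to 45.5 CPM over all libraries. WRKY30, 55, 58 and 62 had few counts, and WRKY62, the partner of WRKY38, had 0.288 and 0.597 CPM in the triple mutant and 0 and 0.160 in WT. Of the 3 members with the lysine codon, WRKY51 passed in nup136, WRKY50 in no genotype, and WRKY59 was not tested. WRKY41 had 5 counts over all libraries and overlaps 3xHMG-box1 on the opposite strand over 517 bases, a gene with 16936 counts.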

How the data were processed

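Per the submitters' processing notes, HISAT2 2.0.4 and HTSeq 0.6.1p1 were used with the build TAIR10 on mRNA libraries of whole seedlings; the strand setting and the handling of reads with several alignments are not given in the sources used here. The authors deposited raw gene counts and FPKM values. The deposited FPKM are the counts divided by gene length and 1 constant per library, and served here only to compare levels between genes. Columns were matched to samples by name.

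All 16 libraries entered 1 quasi-likelihood fit of edgeR 4.0.16 (R 4.3.3; robust, TMM scaling, filterByExpr with a minimum count of 10) with 1 coefficient per genotype and 8 residual degrees of freedom. Its 14 contrasts were adjusted by Benjamini-Hochberg over 22427 genes. Values in brackets after CPM are the log2 fold change ± its standard error and the adjusted p. CPM were computed from the counts with TMM factors. The common biological coefficient of variation was 0.102, and the spread between libraries of a genotype was 5.02 to 17.0 times counting error (chi-square per degree of freedom), so no 2 libraries were duplicates. Replicate numbers did not pair samples: deviations of same-numbered libraries correlated at -0.115 to 0.118 over 28 pairs of genotypes.

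Alternatives were DESeq2 size factors, library totals, no count filter, the Wald test of DESeq2 1.42.0, a replicate block, only the 2 genotypes compared, and leaving out 1 library at a time. The fit was tested on simulated counts with known changes. Members, gene lists and tests were chosen with earlier results of these data known. Named are the 8 largest changes each way in the triple mutant, up to 3 each way in other contrasts, the 3 highest levels, and list members; others are named as part of a count or were chosen after their values were seen. Gene positions and sequences are from RefSeq (TAIR10.1), and protein sequences were not used here.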

Additional observations from a re-analysis of the deposited data

Results flagged for a closer look

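For 12 WRKY genes the effect of a mutation differed between backgrounds, by the test of the non-additivity term itself (edgeR's quasi-likelihood test, adjusted over 22427 genes; log2 scale, ± standard error). These are 20.3% of the 59 tested members, beside 17.6% of all tested genes with a call in at least 1 of the 4 terms. In the three-way term these were WRKY75 (2.45 ± 0.53, adjusted p = 0.00444), WRKY45 (1.98 ± 0.40, 0.00196) and WRKY6 (1.83 ± 0.29, 0.000215). Between nup50c and nup136 they were WRKY60 (0.99 ± 0.26, 0.0218), WRKY47 (0.95 ± 0.19, 0.00261), WRKY48 (0.93 ± 0.25, 0.0288), WRKY21 (0.86 ± 0.14, 0.00021) and WRKY7 (0.49 ± 0.14, 0.0309). Between libraries labelled nup82 and nup136 they were WRKY54 (-1.77 ± 0.40, 0.00632), WRKY51 (-1.28 ± 0.37, 0.0304), WRKY70 (-1.10 ± 0.30, 0.0439), WRKY47 (0.71 ± 0.19, 0.0201), WRKY15 (0.47 ± 0.14, 0.0302) and WRKY7 (0.45 ± 0.14, 0.0384). Between nup50c and nup82 they were WRKY70 (-1.31 ± 0.29, 0.0271) and WRKY15 (0.51 ± 0.14, 0.0265). WRKY7, 15, 47 and 70 thus appear in 2 terms each. By term, the members called were 5.08% beside 9.55% of all genes in the three-way term, 8.47% beside 5.17% for nup50c with nup136, 10.2% beside 8.77% for nup82 with nup136 and 3.39% beside 4.78% for nup50c with nup82. Of the 16 calls, 10 were lost with at least 1 library left out. The 6 that passed with any 1 library left out were the 3 of the three-way term, WRKY21 and WRKY47 between nup50c and nup136, and WRKY54.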

How the results depend on the processing

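Each comparison rests on 2 libraries per genotype, and calls were lost with single libraries both in low-level members (WRKY8, 24, 43, 49 and 56) and in abundant ones (WRKY15, 18, 40 and 70). Of 726 recomputed values of 66 named results, 615 kept direction and call, 111 lost the call and 0 reversed. All 66 kept direction and call under DESeq2 size factors, library totals, no count filter and the Wald test of DESeq2; 104 of 344 values with 1 library left out, 3 of 52 with only the 2 genotypes compared and 4 of 66 with a replicate block lost the call.

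Without the count filter, the number of WRKY genes called was 4 in nup50c, 2 in libraries labelled nup82, 4 in those labelled nup50c nup82, and 6, 11, 11 and 6 in the terms nup50c by nup82, nup50c by nup136, nup82 by nup136 and three-way. Over all genes the calls also rose without it, to 855 in nup50c (389 with the filter), 924 in libraries labelled nup82 (312) and 728 in those labelled nup50c nup82 (203). In the 4 terms, in the same order, they rose to 1742, 1769, 2738 and 2774 (1073, 1159, 1967 and 2141 with the filter). The DESeq2 Wald test called 1 in libraries labelled nup82 (555 of all genes), 1 in those labelled nup50c nup82 (489) and 5 in the three-way term (2512 of all genes, against 2141 by edgeR). With only the 2 genotypes compared, 1 was called in libraries labelled nup82 and 2 in those labelled nup50c nup82. Over all genes the calls also rose in that setting, to 626 of 21367 and 317 of 21318. The cause was not tested.

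With each library left out, the counts ranged over 0 to 1 in nup50c, 0 to 0 in libraries labelled nup82, 9 to 10 in nup136, 0 to 0 in those labelled nup50c nup82, 19 to 25 in nup50c nup136, 10 to 16 in those labelled nup82 nup136 and 24 to 30 in the triple mutant. For the triple mutant against nup50c nup82, nup50c nup136 and nup82 nup136 they ranged over 20 to 28, 10 to 13 and 15 to 19. For the terms nup50c by nup82, nup50c by nup136, nup82 by nup136 and three-way they ranged over 0 to 2, 3 to 6, 2 to 6 and 3 to 6. In nup50c no member was called without WT replicate 1, WT replicate 2 or nup50c replicate 2. The member called there without nup50c replicate 1 was not WRKY45, which lost its call in that fit. Over all genes, calls against WT and against the doubles fell with any library left out. In the terms they fell too, except for nup82 by nup136 and three-way without nup82 nup136 replicate 2, where they rose.

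With the replicate block the counts were 1 in nup50c, 0 in libraries labelled nup82, 11 in nup136, 0 in those labelled nup50c nup82, 30 in nup50c nup136, 21 in those labelled nup82 nup136 and 35 in the triple mutant. Against the 3 doubles they were 30, 17 and 18, and in the 4 terms 2, 5, 5 and 4. Over all genes the block raised the calls in each comparison, in the triple mutant against WT to 10829 from 10674. The numbers do not pair the samples, and same-numbered libraries correlated at a median of 0.0169.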
